A study of Mus musculus with 51 samples.

Results

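The genes described here are the Hox genes of the mouse, the rows of the count table named Hoxa, Hoxb, Hoxc or Hoxd with a paralogue number. They number 39 of the 52636 genes in the table: 11 Hoxa, 10 Hoxb, 9 Hoxc and 9 Hoxd genes. Members were picked by a rule on the gene name that uses no measured value, though earlier results of these data were known. They were followed through all 51 RNA-seq libraries of a series on the mouse oesophagus, its junction with the stomach, and reference tissues along the gut.

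Hox genes encode homeodomain transcription factors that stand in 4 clusters on different chromosomes. Within a cluster the genes are numbered in order, and low-numbered (anterior) paralogues are used nearer the head than high-numbered (posterior) ones. In the gut, Hox genes are best known from the mesenchyme around the epithelium, and retinoic acid and Cdx factors are known inducers of the clusters. Below, paralogues 1 to 3 are called anterior, 4 to 8 middle and 9 to 13 posterior.

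Cells were sorted by EpCAM, an epithelial surface protein, or by a YFP reporter carried with the simple-epithelial keratin gene Krt8 (Krt8YFP). WT (6 libraries) is EpCAM-low oesophagus of wild-type CD1 mice. SmoM2 (6) is EpCAM-high oesophagus of CD1 mice of genotype Krt5-SmoM2, named for a basal-cell keratin and for an active form of the Hedgehog receptor component Smoothened. Sox9cKO (4) is EpCAM-high oesophagus of genotype Krt5-SmoM2-Sox9fl/fl. K8YFP+ and K8YFP- (3 each) are EpCAM-high oesophageal cells with and without YFP, from Krt5-SmoM2-Krt8YFP mice of mixed background. The time series has 4 groups of 4 libraries: Krt5-SmoM2 oesophagus labelled 3w or 7w and sorted EpCAM-low (EpLo) or EpCAM-high (EpHi). The labels used here do not give the start of those weeks. Embryo (2) is EpCAM and YFP sorted oesophagus of day E13.5. The junction gave a columnar part sorted on high EpCAM and YFP (4) and a squamous part sorted on high EpCAM without YFP (3). Stomach and Gut (2 each) are YFP-sorted cells. Embryo, both junction parts, Stomach and Gut carry Krt8YFP. Embryo, columnar junction, Stomach and Gut are labelled as mixed background. The strain of the squamous junction, the time series and Sox9cKO is not in the labels used here. Nor do the labels say whether replicates came from separate animals, so p-values measure only the spread between these libraries, which may be technical.

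Library totals ran from 1.61 to 12.3 M counts, the lowest being K8YFP+ replicate 2. The squamous keratin and Trp63 markers summed to 17708 to 26629 CPM (the count scaled to a common library total, in counts-per-million units) in WT and 10545 to 12123 in squamous junction. They summed to 27.5 to 136 in columnar junction, where gastric markers reached 22231 to 40890. The Hedgehog target Gli1 was at 0.428 to 1.22 CPM in WT and at 194 to 288 in SmoM2. It lay between those groups in both EpLo groups, at 15.7 to 17.6 CPM at 3w and 6.13 to 11.0 at 7w, and in squamous junction at 13.7 to 19.5. Sox9 was at 51.7, 45.7, 127 and 45.8 CPM in the libraries labelled Sox9cKO and at 72.7 to 194 in SmoM2, so the Sox9cKO replicate 3 library did not stand below SmoM2. WT replicates 3 and 5, and 4 and 6, were nearer to each other (chi-square per degree of freedom 1.83 and 2.31) than any other WT pair (9.94 to 31.5). The raw names of each such pair differ only in their leading number (WT replicate 2 shares this with replicates 3 and 5 but was not near them), so they may be repeat libraries of 1 sample, in which case n = 6 and its SD overstate the replication of WT. They differed by more than sampling noise and were kept as 6 libraries, and summing each pair was tried as an alternative.

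Hoxc4, Hoxc6 and Hoxc8, from the cluster that carried most of the adult signal, are shown by their homeobox, the stretch that encodes the DNA-binding homeodomain. It is also the stretch where Hox genes are most alike, so it bears on whether reads can be told apart. Sequences are from GENCODE M21 transcripts (GRCm38), 180 bases each, written 5′ to 3′ on the coding strand. Capitals mark bases that differ from Hoxc4. Hoxc4 lies at chr15:103035663-103035842 (plus strand), Hoxc6 at chr15:103010754-103010933 and Hoxc8 at chr15:102992571-102992750, all on the plus strand and each within 1 exon.
Hoxc4: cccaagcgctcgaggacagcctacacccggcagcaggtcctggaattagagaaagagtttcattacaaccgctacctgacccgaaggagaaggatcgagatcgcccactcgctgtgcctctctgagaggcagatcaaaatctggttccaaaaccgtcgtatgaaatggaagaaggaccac
Hoxc6: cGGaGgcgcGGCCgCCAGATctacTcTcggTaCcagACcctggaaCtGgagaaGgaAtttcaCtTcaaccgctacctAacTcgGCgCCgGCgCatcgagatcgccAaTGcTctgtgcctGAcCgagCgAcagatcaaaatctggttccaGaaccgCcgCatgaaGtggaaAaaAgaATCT
Hoxc8: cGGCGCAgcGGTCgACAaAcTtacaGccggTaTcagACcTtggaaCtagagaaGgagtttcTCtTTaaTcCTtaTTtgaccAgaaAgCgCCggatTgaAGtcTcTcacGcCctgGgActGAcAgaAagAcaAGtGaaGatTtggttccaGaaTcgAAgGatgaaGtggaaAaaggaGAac
Hoxc6 and Hoxc8 matched Hoxc4 at 70.6% and 63.9% of bases, and the longest runs identical to it were 20 and 8 bases. Paralogues of like number in other clusters were closer. Hoxb4 matched Hoxc4 at 82.2% of bases, and Hoxa3 matched Hoxb3 at 93.9%. Whether reads from such pairs were told apart was not tested.

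A Hox gene was counted as expressed in a group when every library of the group had at least 1 CPM by library total. By that rule 13 of the 39 genes were expressed in at least 1 group and 26 in none. They included Hoxa2, Hoxa3, Hoxa4, Hoxa5 and Hoxa7, Hoxb2, Hoxb3 and Hoxb4, and Hoxc4, Hoxc5, Hoxc6 and Hoxc8. No posterior gene and no Hoxd gene was expressed in any group, and Hoxa11 and Hoxc12 had no count in any library. The number expressed was 11 in Embryo, 8 in WT, 12 in SmoM2, 8 in Sox9cKO, 10 in K8YFP- and 8 in K8YFP+. It was 10 in 3w EpLo, 9 in 3w EpHi and 11 in both 7w groups. It dropped to 4 in squamous junction and 1 in columnar junction (Hoxc4), with 0 in Stomach and 2 in Gut (Hoxa3 and Hoxa5). With 0.5 CPM in place of 1 the numbers were 2 in columnar junction and 5 in Gut, and with 2 CPM they were 4 in WT, 7 in SmoM2, 0 in columnar junction and 1 in Gut.

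**Figure D1:**
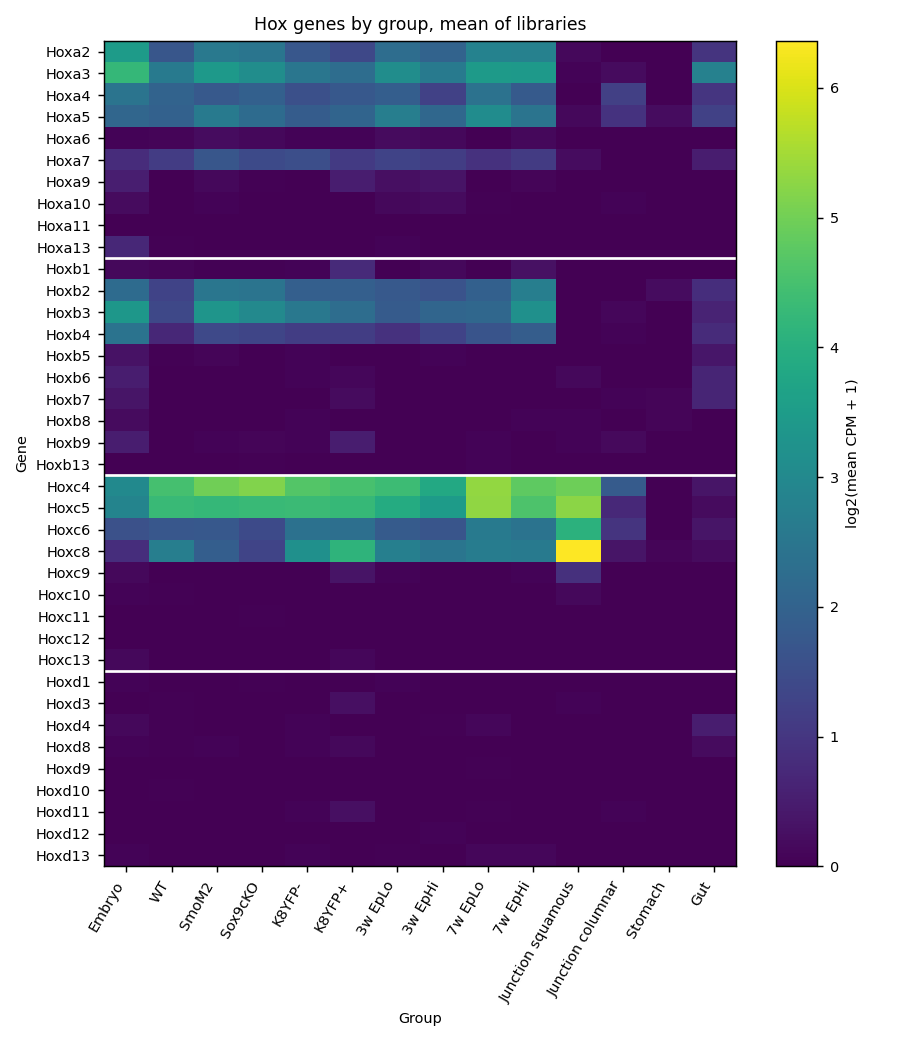
Mean level of Hox genes (rows, white lines between clusters) in the 14 groups (columns), as log2 of mean CPM plus 1. Signal sits in anterior and middle Hoxa, Hoxb and Hoxc rows, and in squamous junction in Hoxc rows only, with Hoxc8 the brightest.

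Summed over all 39 genes, Hox counts were 67.2 ± 8.53 CPM in WT (SD, n = 6) and 166 ± 6.11 in squamous junction (n = 3). They were 7.33 ± 1.80 CPM in columnar junction (n = 4), where the 4 libraries together held 164 Hox counts. Stomach had 5 Hox counts among 10.8 M counts, a sum of 0.510 CPM, and Gut had 97, a sum of 14.6 CPM. The makeup differed as much as the sum. Hoxc genes were 72.0% ± 4.99 of Hox counts in WT, 99.6% ± 0.0546 in squamous junction, 20.9% ± 4.95 in Embryo (n = 2) and 4.55% ± 6.43 in Gut (n = 2). Hoxa genes led in Embryo (54.4% ± 3.78) and in Gut (69.1% ± 16.3). Anterior genes were 58.7% ± 1.83 of Hox counts in Embryo, 16.1% ± 2.90 in WT and 30.6% ± 2.07 in SmoM2. In squamous junction 4 anterior counts stood among 3312 Hox counts. In these bulk libraries, fewer cells that use a gene and less RNA per cell cannot be told apart.

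**Figure D2:**
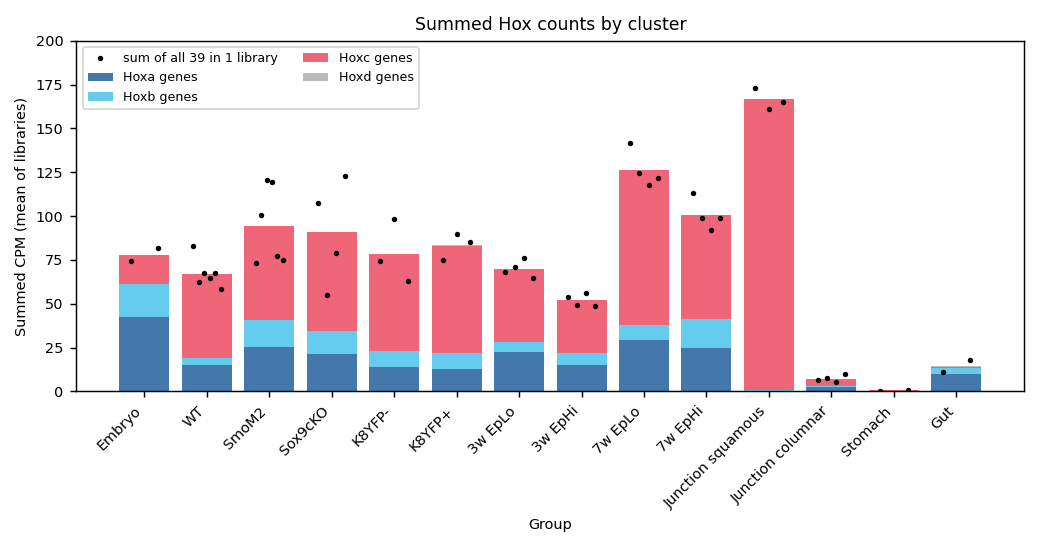
Stacked bars give the mean summed CPM of Hoxa, Hoxb, Hoxc and Hoxd genes by group, and dots the sum of all 39 genes in each library. Squamous junction is the tallest bar at 166 CPM and almost wholly Hoxc, while columnar junction and Stomach are at 7.33 and 0.510 CPM.

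Levels of different genes were compared as CPM per kilobase of exon. In WT the order was Hoxc4 (8.32 ± 1.42 CPM per kb), Hoxc5 (6.14 ± 0.503), Hoxc8 (1.98 ± 1.72), Hoxa4 (1.93 ± 0.492) and Hoxa5 (1.57 ± 0.551). Hoxc8, Hoxa4 and Hoxa5 lay within 1 SD of their neighbours in that order. In squamous junction Hoxc8 came first at 28.7 ± 1.42 CPM per kb, followed by Hoxc5 (12.0 ± 0.746) and Hoxc4 (11.8 ± 1.25), which lay within 1 SD of each other, and Hoxc6 (6.70 ± 0.771). In Embryo the first was Hoxa2 (5.83 ± 0.811 CPM per kb), followed by Hoxa3, Hoxa4 and Hoxc4 at 2.98 ± 0.308, 2.80 ± 0.597 and 2.77 ± 0.618, which lay within 1 SD of each other. In Gut Hoxa3 had the highest mean, at 0.994 ± 0.148 CPM per kb, with Hoxa5 (0.725 ± 0.219) and Hoxa4 (0.620 ± 0.388) near it, Hoxa4 within its own SD of Hoxa3 (n = 2).

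The sharpest step lay between the 2 sides of the junction. Hoxc8, the most posterior of the expressed Hoxc genes, was at 84.6, 76.8 and 82.5 CPM in squamous junction and at 0.154, 0.170, 0.233 and 0.542 in columnar junction. Hoxc5 was at 37.7, 34.6 and 39.1 CPM against 0.461, 0.681, 0.467 and 1.08. Hoxc6 was at 15, 18.3 and 15.1 CPM against 0.461, 0.681, 0.233 and 2.35. For these middle Hoxc genes no columnar library came near a squamous one. Hoxc4, the most anterior gene of its cluster in the mouse, was at 33.4, 30.4 and 26.9 CPM against 2.00, 1.53, 2.80 and 3.80, again with no overlap. Columnar minus squamous log2 fold changes were -8.43 ± 0.21 (SE) for Hoxc8 (edgeR adjusted p = 2.17e-12), -6.05 ± 0.21 for Hoxc5 (4.36e-11), -4.38 ± 0.39 for Hoxc6 (8.76e-07) and -3.90 ± 0.22 for Hoxc4 (4.11e-09). The size of the step thus fell from Hoxc8 to Hoxc4, with Hoxc5 above Hoxc6. These 4 were the Hox genes that passed the filter on low counts, which Hoxc5, Hoxc6 and Hoxc8 passed through the squamous group, so their common direction is no result about the list. Among the 17185 genes tested 35.1% were lower and 39.2% higher in columnar cells, so a lower call is common. The YFP gate differs between the parts, as does the leading number of the raw library names, and neither can be told apart from position. The other 35 Hox genes were not tested. Without the filter on low counts, or in a fit of all 51 libraries, 7 Hox genes were called, with 2 and 3 of them higher in columnar junction.

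Hoxa genes did not follow Hoxc across the junction. Hoxa4, which had no count in squamous junction, was at 1.69, 2.55, 0.233 and 0.723 CPM in columnar junction. Hoxa5, a regulator of lung and foregut mesenchyme patterning, was at 0, 0.154 and 0.143 CPM in squamous and at 1.23, 0.681, 0.933 and 0.723 in columnar junction. Both were low and were not tested in the fit of the 2 parts alone. Fibroblast markers summed to 34.8 to 48.4 CPM in squamous junction, where 1 of 12 (Prrx1) had no count, and to 246 to 477 in columnar junction, where Twist1 had none. Other lists were higher in columnar junction too: immune (79.8 to 114 CPM against 8.84 to 15.7), enteroendocrine (1470 to 3011 against 1.28 to 4.23) and tuft markers (1914 to 3847 against 3.56 to 6.27). Melanocyte markers overlapped between the parts. The share of any of these cells in the Hoxa counts was not tested.

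Squamous junction was then set against the other adult squamous group without SmoM2, WT oesophagus. All 13 Hox genes tested were called: the 4 Hoxc genes were higher and the 9 Hoxa and Hoxb genes lower. With few or no counts in squamous junction, the 9 passed the filter on low counts through other groups. Their common direction is therefore no result about the list. None of the 13 overlapped between the groups. The share of all genes without overlap was not counted, so this too is no result about the list. Over all 22370 genes tested, 16.2% were higher and 14.2% lower, and the median log2 change was -4.66 for the Hox genes, several of them fitted against 0, and 0.00 for all genes. Hoxc8 in WT ran from 0.854 CPM through a median of 4.54 to 12.1, against at least 76.8 in squamous junction, a log2 fold change of 3.85 ± 0.45 (edgeR adjusted p = 7.88e-09). Hoxc6 in WT ran from 1.49 through 2.04 to 3.41 CPM, a log2 fold change of 2.81 ± 0.34 (9.18e-09). Hoxc5 ran from 17.2 through 18.4 to 21.2 CPM, a log2 fold change of 0.98 ± 0.18 (3.63e-05). Hoxc4 ran from 17.3 through 21.3 to 25.4 CPM, a log2 fold change of 0.52 ± 0.19 (0.0356). The gap between the groups therefore widened along the cluster from Hoxc4 to Hoxc8. The Hoxc4 call was lost without squamous junction replicate 1 (0.43, adjusted p = 0.161) or replicate 2 (0.50, 0.0951) and with the WT pairs summed (0.49, 0.0787). It was also lost with no filter on low counts (0.49, 0.0572) and with the replicate block (0.45, 0.0914). Posterior Hoxc9 was under the threshold for expression but present, at 1.41, 0.307 and 0.855 CPM in squamous junction, with no count in any WT library.

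The anterior and middle Hoxa and Hoxb genes were near 0 in squamous junction. Hoxa3, which acts in pharyngeal patterning, ran from 3.74 through a median of 5.13 to 6.82 CPM in WT and was at 0.157, 0 and 0 in squamous junction. That is 103-fold lower, with a 95% counting interval of 18.3 to 4069. Hoxa4 ran from 1.92 through 3.26 to 3.98 CPM in WT with no count in squamous junction, at least 20.2-fold lower. Hoxb3 and Hoxb2, hindbrain and pharyngeal paralogues, also had no count there, so Hoxb3 was lower by at least 10.5-fold and Hoxb2 by at least 9.46-fold. The bound was 4.11-fold for Hoxb4 on the same floor of 3 counts over the group. Few counts were left of Hoxa5 (28.7-fold lower, interval 7.82 to 239), Hoxa2 (21.8-fold, 5.91 to 182) and Hoxa7 (7.84-fold, 2.56 to 39). The 3 squamous libraries held 8 Hoxa and 4 Hoxb counts in all, beside 3299 Hoxc counts. Intervals and floors cover counting error only.

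The noncoding RNAs inside the Hoxa and Hoxb clusters were also near 0 in squamous junction. All 5 of the 12 listed that were tested (Halr1, Hotairm1, Hoxaas2, Hoxaas3 and Hoxb3os) were lower there than in WT, beside 14.2% of all genes. With few or no counts in squamous junction, they passed the filter on low counts through other groups. A higher call was hardly possible, so their common direction is no result about the list. Hoxb3os, antisense to Hoxb3, was at 1.74 to 4.26 CPM in WT, with no count in squamous junction. Hotairm1, a noncoding RNA of the Hoxa cluster, was at 1.60 to 2.86 CPM in WT and at 0.157, 0 and 0.143 in squamous junction. Skap2, the coding gene beside the Hoxa cluster, was at 83.8 to 98.5 CPM in WT, 8.14, 5.99 and 7.27 in squamous junction and 203 to 393 in columnar junction. Its squamous junction minus WT log2 change was -3.66 ± 0.19 (edgeR adjusted p = 8.27e-20). Meis1, a TALE homeodomain partner of Hox proteins, was at 81.8, 77.8 and 84.1 CPM in squamous junction and 23.6 to 34.8 in WT (log2 1.53 ± 0.16, 7.70e-11). It was 1 of 3 among 9 listed TALE cofactors that rose, with none lower. Cyp26b1, which degrades retinoic acid, was at 172 to 224 CPM in squamous junction and 140 to 254 in WT, a log2 change of 0.02 ± 0.26 (adjusted p = 0.989).

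Gate, genotype and possibly strain differ between squamous junction and WT together with position, and these cannot be told apart. The raw names of the junction libraries also begin with another number than those of WT. What the number stands for is not given. Fibroblast markers summed to 21.3 to 123 CPM in WT and 34.8 to 48.4 in squamous junction, so the ranges overlapped. Other lists did not overlap. The 5 simple epithelial keratins summed to 241 to 270 CPM in squamous junction and 5.77 to 8.02 in WT, and all 5 were called higher. The 6 immune markers summed to 8.84 to 15.7 CPM, with none of Lyz2, against 0.214 to 2.56. Gli1 was at 17.5, 13.7 and 19.5 CPM in squamous junction and at most 1.22 in WT. The part of these in the Hox differences was not tested.

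**Figure D3:**
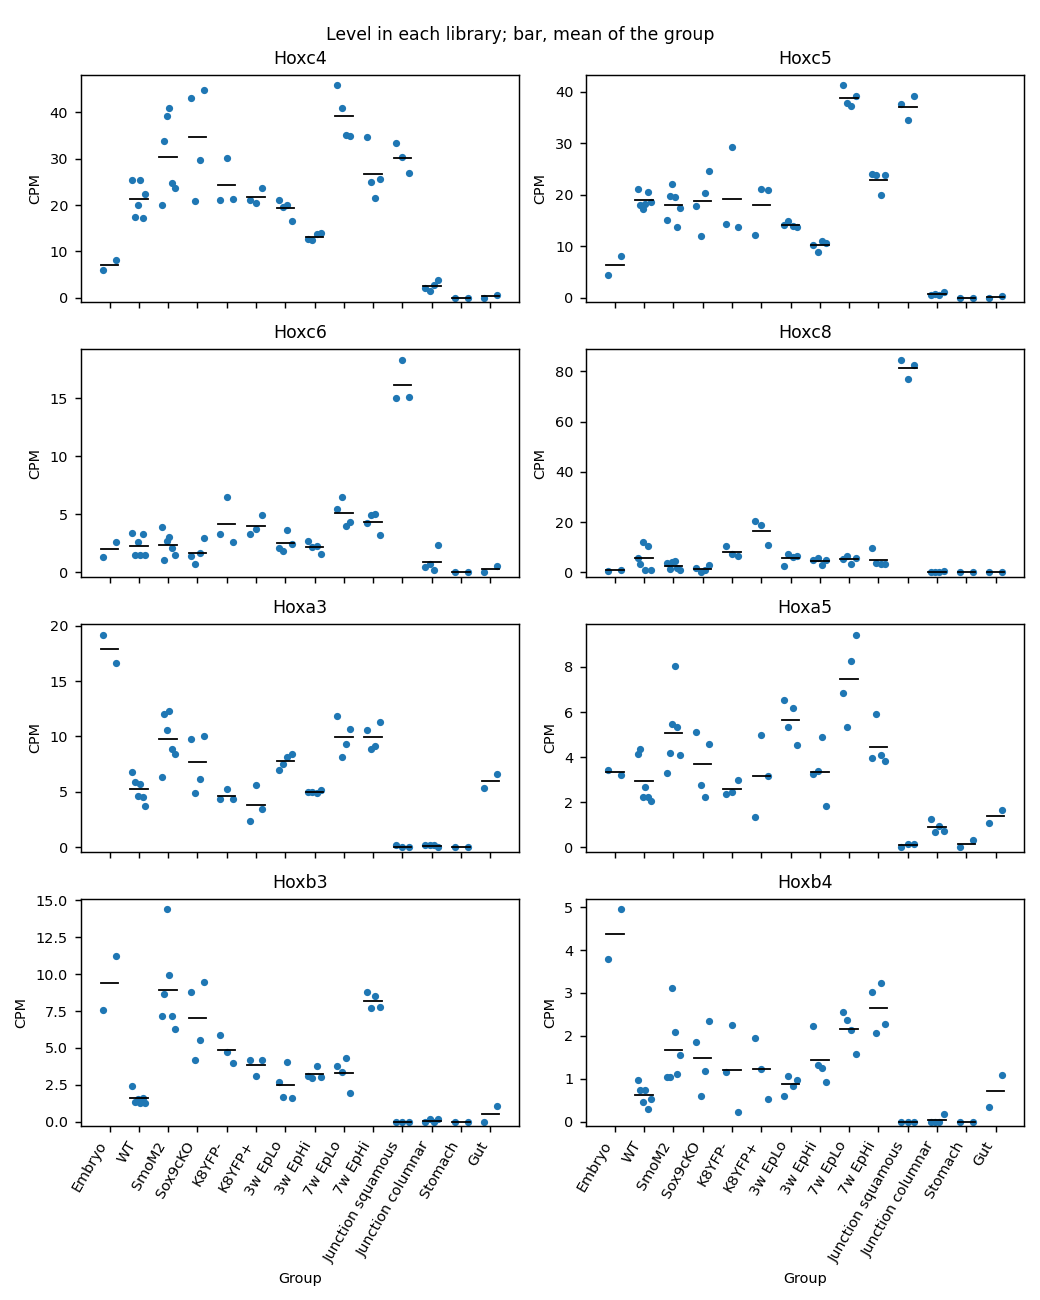
CPM of 8 Hox genes in every library (dots) with the group mean (bars), on a linear axis for each gene, drawn from just below 0. Squamous junction is the highest group for Hoxc6 and Hoxc8 and lies at or near 0 for Hoxa3, Hoxa5, Hoxb3 and Hoxb4.

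Stomach libraries held fewer Hox counts than columnar junction. In Stomach Hoxc4, Hoxc5, Hoxc6 and Hoxa4 had no count in either library, and Hoxa5 was at 0 and 0.313 CPM. Set against columnar junction these 5 of 13 Hox genes tested were lower and none higher, in a comparison with 18.4% of genes lower and 13.4% higher. The 13 passed the filter on low counts through groups other than Stomach, which held 5 Hox counts in all. A higher call was thus hardly possible, so the common direction is no result about the list. Hoxc4 was at least 8.93-fold lower in Stomach, Hoxa4 at least 5.04-fold, Hoxc6 at least 3.41-fold and Hoxc5 at least 2.44-fold. Hoxa5 was 9.75-fold lower with a counting interval of 1.56 to 404. The edgeR adjusted p was 5.64e-06 for Hoxc4 and 0.00162 to 0.0265 for the other 4. Without Stomach replicate 1, the deeper library, 1 of these calls was left (Hoxc4). Hoxc6 was also lost without columnar junction replicate 4 (adjusted p = 0.0544) and Hoxa5 without replicate 1 (0.0595). With DESeq2 the Hoxa5 call was lost as well (adjusted p = 0.0824).

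Gut had more Hox RNA than Stomach, mostly from Hoxa. Hoxa3 was at 5.35 and 6.61 CPM with no count in Stomach, at least 21.8-fold higher (edgeR adjusted p = 9.28e-11). Hoxa2 was at 1.07 and 0.826 CPM and Hoxa4 at 1.43 and 0.551, each at least 3.36-fold higher (adjusted p = 0.00859 and 0.00799). Hoxb4 was at 0.356 and 1.10 CPM, at least 2.80-fold higher (0.0124). Hoxb3 was at 0 and 1.10, so its groups overlapped, and it was at least 2.24-fold higher (0.0139). Hoxa5, at 1.07 and 1.65 CPM, was 15.1-fold higher with an interval of 2.10 to 663 (0.00382). These 6 of 13 were higher and none was lower, beside 15.6% of genes higher and 15.3% lower. With 5 Hox counts in Stomach a lower call was hardly possible, so this common direction is also no result about the list. No median is given for these comparisons with Stomach, since most of its Hox values are 0.

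Hoxc genes added little to Gut, with 6 counts in all, none in replicate 1. Without Stomach replicate 1 only the Hoxa3 call was left. Without Gut replicate 2, Hoxb3 (adjusted p = 1) and Hoxb4 (0.179) were lost, and without replicate 1 Hoxa4 (0.101). The Hox inducers Cdx2 and Cdx1 were at 90.2 and 124 and at 33.9 and 49.8 CPM in Gut, with no count in Stomach. Fibroblast markers summed to 17.8 and 145 CPM in Gut and 55.1 and 91.5 in Stomach. Hoxa3 was at 5.35 CPM in Gut replicate 1 and 6.61 in replicate 2. Fibroblast and endothelial marker genes were among the genes called higher in Gut (5 of 12 and 4 of 4), the fibroblast list's Fn1 was called lower, and the part of such cells was not tested.

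The embryonic oesophagus differed from adult WT in the balance of Hox genes. Anterior Hoxa2, Hoxa3 and Hoxb3 and middle Hoxb4 were among the genes called higher, and Hoxc4, Hoxc5 and Hoxc8 were lower. Of 13 Hox genes tested, 5 were higher and 3 lower, beside 36.0% and 27.8% of all genes, so these shares are near those over all genes. Hoxc5 was at 4.43 and 8.15 CPM, under every WT library (log2 -2.12 ± 0.25, edgeR adjusted p = 8.99e-10). Hoxc4 was at 6.00 and 8.25 CPM, also under every WT library (-2.10 ± 0.26, 2.35e-09). Hoxc8 was at 0.739 and 0.825 CPM, just under the lowest WT library at 0.854 (-3.35 ± 0.79, 3.30e-04). Hoxb3 was at 7.57 and 11.2 CPM, against a WT range of 1.28 to 2.44 with a median of 1.45 (2.03 ± 0.31, 3.26e-07). Hoxa3 was at 19.2 and 16.6 CPM (1.26 ± 0.23, 5.72e-06). Hoxb4 was at 3.79 and 4.95 CPM against 0.304, 0.640 and 0.974 (2.26 ± 0.44, 1.94e-05). Hoxa2 was at 9.33 and 11.4 CPM against 1.32, 1.66 and 4.38 (1.68 ± 0.35, 7.85e-05). No called Hox gene overlapped between Embryo and WT. These genes were picked by the call on the same libraries, and the share of all genes without overlap was not counted. The lack of overlap is therefore no result about the list.

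Those fitted changes are scaled by edgeR's TMM factors and are smaller than the CPM ratios where a gene is higher. The median log2 change over all genes was 0.16 here, or 0.27 with RLE scaling, and 0.02 over the 13 Hox genes. With RLE or with DESeq2 Hoxb2, at 4.43 and 2.84 CPM, was called as well (log2 0.93 in both). Embryo replicate 1 stood apart from replicate 2 in Cdx2 (41.9 against 0.183 CPM) and Pdx1 (5.08 against 0), and in posterior Hox genes such as Hoxa13 (1.02 against 0.275 CPM) and Hoxb9 (0.739 against 0.0916). Without it all 8 calls were made and Hoxa7 was added as lower (adjusted p = 0.0384). Fibroblast markers summed to 587 and 839 CPM in Embryo, above the WT range, and 9 of 12 were called higher. How much of the embryonic Hox signal came from such cells was not tested. Of 9 TALE cofactors 7 were higher, and of 5 noncoding cluster RNAs tested 4 were. Cyp26b1 was lower, at 5.54 and 3.67 CPM (log2 -5.96 ± 0.46, 2.31e-14).

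SmoM2 cells had more anterior Hox RNA than WT, and no Hoxc gene passed the test. Of 11 Hox genes tested 6 were higher and none lower, beside 26.1% of 16224 genes higher and 23.2% lower, and the median log2 change was 0.65 against 0.01 for all genes. Hoxb3 ran from 6.28 through a median of 7.91 to 14.4 CPM in SmoM2, above every WT library (log2 2.35 ± 0.24, edgeR adjusted p = 1.27e-06). Hoxb2, its neighbour in the cluster, ran from 3.10 through 4.23 to 6.57 CPM against 0.746, 1.20 and 2.56 in WT, with no overlap (1.56 ± 0.29, 3.78e-04). Hoxa3, the paralogue of Hoxb3 in the other cluster, ran from 6.32 through 9.72 to 12.3 CPM and overlapped WT (0.77 ± 0.19, 0.00287). Hoxa2, the most anterior Hoxa gene called, ran from 2.94 through 4.64 to 7.65 CPM, overlapping WT (1.00 ± 0.33, 0.0193). Hoxa7, the most posterior one, ran from 1.63 through 2.31 to 2.88 CPM against 0.427, 1.14 and 1.82 (0.79 ± 0.30, 0.0389). Hoxa5 ran from 3.27 through 4.75 to 8.05 CPM against 2.03, 2.46 and 4.35 (0.65 ± 0.26, 0.0462). The Hoxb genes thus showed the clear separation and the Hoxa genes smaller changes with overlap. Hoxb4, under the filter and not tested, was at 1.04 to 3.12 CPM in SmoM2 and 0.304 to 0.974 in WT.

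Hoxc4, Hoxc5, Hoxc6 and Hoxc8 did not pass the test, with log2 changes of 0.37, -0.21, -0.10 and -1.20 and adjusted p from 0.0744 to 0.834. Hoxc8 varied widely within WT. WT replicates 3 and 5 were at 12.1 and 10.7 CPM and replicates 4 and 6 at 0.856 and 0.854, the pairs that were near each other over all genes. With each pair summed the Hoxb2, Hoxb3 and Hoxa3 calls held, while Hoxa2 (adjusted p = 0.0962), Hoxa7 (0.0673) and Hoxa5 (0.186) did not. Hoxa5 was also lost with RLE scaling (0.0522), no filter (0.0674), the replicate block (0.0788) and DESeq2 (0.0538). Hoxa7 was also lost with no filter (0.0823), in the fit of all 51 libraries (0.0703) and with DESeq2 (0.0528). In a fit of all 51 libraries Hoxc8 was called lower (log2 -1.23, 0.0199).

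By GENCODE M21, 52.9% of Hoxb3 exon bases and 27.3% of those of Hoxb2 overlap the antisense transcript Hoxb3os. For Hoxa3 25.4% overlap antisense transcripts, Hoxaas2 and Hoxaas3 among them, and for Hoxa7 20.4% overlap Hoxaas3. The strand setting of the counting is not given in the sources used here, so sense and antisense reads cannot be told apart in these 4 genes. Hoxb3os itself ran from 7.67 to 17.8 CPM in SmoM2 and from 1.74 to 4.26 in WT (log2 1.93 ± 0.24, edgeR adjusted p = 7.53e-06). Hotairm1 (0.88 ± 0.22, 0.00340) and Hoxaas2 (0.90 ± 0.20, 0.00182) were higher too, which made 3 of 5 noncoding RNAs tested. Hoxb4, Hoxa5 and the 4 Hoxc genes have no antisense exon overlap. Among the TALE cofactors 4 of 7 tested were higher, Meis1, Meis3 and Pbx3 among them, and none lower. Cyp26b1 was lower, at 35.7 to 98.6 CPM against 140 to 254 (-1.91 ± 0.25, 3.63e-05). Genotype, EpCAM gate and the leading number of the raw library names change together between SmoM2 and WT and cannot be told apart, and that number also differs between WT and both EpLo groups. Squamous markers summed to 9087 to 11264 CPM in SmoM2, under the WT range.

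**Figure D4:**
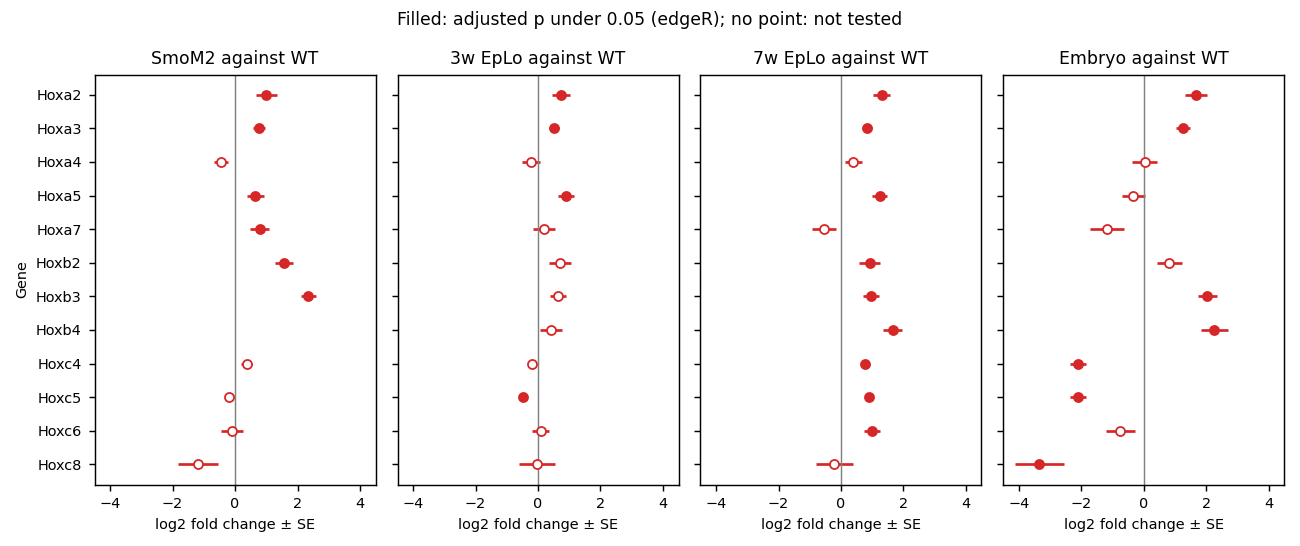
Log2 fold change with SE of Hox genes in 4 groups against WT; filled points have an adjusted p under 0.05, and a missing point means that the gene was not tested. The 4 comparisons share the WT libraries. Hoxb3 is at 2.35 in SmoM2 and 2.03 in Embryo, while Hoxc4 is at -2.10 in Embryo and 0.76 in 7w EpLo.

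The EpLo groups of the time series shared the WT gate. At 3w, 3 of 12 Hox genes tested were higher than in WT and 1 was lower, beside 22.9% and 24.1% of 17263 genes, and the median log2 change was 0.30 (0.01 for all genes). Hoxc5 was at 14.1, 15, 13.9 and 13.7 CPM, under every WT library (-0.48 ± 0.10, edgeR adjusted p = 2.25e-04). Hoxa5 was at 6.53, 5.34, 6.19 and 4.52 CPM, above every WT library (0.89 ± 0.25, 0.00480). Hoxa3 was at 6.98, 7.48, 8.10 and 8.39 CPM, also above WT (0.52 ± 0.16, 0.0103). Hoxa2 was at 2.58, 3.82, 5.60 and 3.39 CPM and overlapped WT (0.74 ± 0.28, 0.0326). The Hoxa3 call was lost in the fit of all 51 libraries (adjusted p = 0.0576) and with the replicate block (0.0621), and the Hoxa2 call with both (0.0966 and 0.2). The Hoxa2 call was also lost without EpLo replicate 2 (adjusted p = 0.0554) or replicate 3 (0.197) and with the WT pairs summed (0.0998). Hoxb3 was added without replicate 2 (0.0257) or replicate 4 (0.0245).

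At 7w 9 of 12 were higher than in WT and none lower, beside 19.2% and 20.8% of genes, with a median log2 change of 0.92 (0.01 for all genes). Hoxc5 was at 41.3, 37.9, 37.2 and 39.2 CPM, above every WT library (0.91 ± 0.09, edgeR adjusted p = 3.10e-08). Hoxc4 was at 45.9, 40.9, 35.2 and 35.0 CPM (0.76 ± 0.12, 2.78e-05) and Hoxc6, the most posterior Hoxc gene called, at 5.49, 6.52, 3.98 and 4.37 (1.00 ± 0.26, 0.00360). All 3 stood above every WT library. Hoxb4 was at 2.55, 2.37, 2.14 and 1.57 CPM (1.66 ± 0.31, 1.61e-04), with no overlap. Hoxa3 was at 11.8, 8.10, 9.34 and 10.7 CPM (0.83 ± 0.16, 1.91e-04). Hoxa5 was at 6.83, 5.33, 8.27 and 9.44 CPM (1.24 ± 0.24, 2.76e-04) and Hoxa2 at 5.89, 6.52, 5.36 and 6.29 (1.30 ± 0.27, 4.48e-04), both above WT.

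Hoxb2 and Hoxb3 overlapped WT at 7w. Hoxb2 was at 4.96, 2.17, 2.60 and 1.75 CPM (log2 0.92 ± 0.33, edgeR adjusted p = 0.0284), and its call was lost without EpLo replicate 1 (0.50, 0.288) and with the WT pairs summed (0.89, 0.0537). Hoxb3 was at 3.75, 3.36, 4.29 and 1.92 CPM (0.96 ± 0.26, 0.00474). Hoxc8, at 5.49, 6.52, 3.52 and 5.77 CPM, lay within the WT range and was not called (-0.22 ± 0.59, 0.790).

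The difference between the 2 EpLo time points was tested directly. Hoxc5 was higher at 7w than at 3w by 1.40 ± 0.10 on the log2 scale (edgeR adjusted p = 8.52e-10), Hoxb4 by 1.25 ± 0.34 (0.00571), Hoxc4 by 0.96 ± 0.14 (7.69e-06) and Hoxc6 by 0.92 ± 0.30 (0.0160). Hoxc5 thus crossed from under WT at 3w to above it at 7w. The other 8 Hox genes tested did not pass, and none was lower, beside 19.4% of genes higher and 18.3% lower. The raw names of the 3w and 7w libraries begin with different numbers, whose meaning is not given, so time and whatever they mark cannot be told apart. Cyp26b1 was at 155 to 190 CPM in 3w EpLo and 43.7 to 76.1 in 7w EpLo, and the sum of squamous markers was 10645 to 11674 and 18224 to 20194 CPM.

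Within a time point, EpHi cells had less Hoxc4, Hoxc5, Hoxa4 and Hoxa5 than EpLo cells. These fits did not pair libraries by replicate number, though at each time all 4 EpHi libraries correlated best with the EpLo library of their own number. At 3w 5 of 12 Hox genes were lower and none higher, beside 7.69% and 7.32% of genes, with a median log2 change of -0.39 (-0.01 for all genes). Hoxc5 was at 10.2, 8.97, 11.0 and 10.6 CPM in EpHi, under all 4 EpLo libraries (-0.52 ± 0.11, edgeR adjusted p = 0.00135). Hoxc4 was at 12.7, 12.4, 13.7 and 13.9 CPM against 21.2, 19.5, 20 and 16.6 (-0.61 ± 0.15, 0.00442). Hoxa3 was at 4.96, 5.00, 4.90 and 5.13 CPM (-0.68 ± 0.18, 0.00999). None of these 3 overlapped between the gates. Hoxa4 was at 1.44, 0.883, 1.54 and 1.45 CPM against 3.64, 2.90, 2.14 and 2.26, also without overlap (-1.07 ± 0.35, 0.0399). Hoxa5 was at 3.26, 3.38, 4.90 and 1.84 CPM and overlapped (-0.81 ± 0.28, 0.0485). In a fit of all 51 libraries none of the 5 was called, with adjusted p from 0.0669 to 0.141. Leaving out 1 library left 3 to 5 calls. Hoxa4 was lost without any EpHi library (adjusted p = 0.0586 to 0.116) and without EpLo replicate 1 (0.13) or 2 (0.0792). Hoxa5 was lost without EpHi replicate 1 (0.100), 2 (0.0858) or 4 (0.176) and without EpLo replicate 1 (0.118), 2 (0.0709) or 3 (0.107).

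At 7w 4 Hox genes were lower in EpHi and 2 higher, beside 16.7% and 15.5% of genes, and the median log2 change was -0.10 (-0.02 for all genes). Hoxc5 was at 24.1, 23.8, 20 and 23.9 CPM in EpHi, under all 4 EpLo libraries (-0.81 ± 0.10, edgeR adjusted p = 4.16e-07). Hoxc4 was at 34.7, 24.9, 21.6 and 25.7 CPM, again under all 4 (-0.60 ± 0.14, 0.00108). Hoxb3 was the reverse, at 8.79, 7.72, 8.51 and 7.80 CPM in EpHi, above all 4 EpLo libraries (1.24 ± 0.25, 3.22e-04). Hoxb2 was at 6.21, 6.48, 3.96 and 5.64 CPM (0.87 ± 0.32, 0.0387), Hoxa5 at 3.94, 5.93, 4.11 and 3.84 (-0.80 ± 0.27, 0.0222) and Hoxa4 at 1.21, 1.93, 3.96 and 2.76 (-0.85 ± 0.31, 0.0380). These last 3 overlapped between the gates. Leaving out 1 library left 3 to 5 calls, and Hoxc4, Hoxc5 and Hoxb3 were called each time. Hoxa4 was lost without EpHi replicate 1 (0.133), 2 (0.109) or 4 (0.05 as rounded, just over the threshold) or EpLo replicate 1 (0.158) or 3 (0.0952). Hoxa5 was lost without EpHi replicate 1 (0.0577), 3 (0.0523) or 4 (0.0608) or EpLo replicate 3 (0.0608) or 4 (0.0903). Hoxb2 was lost without EpHi replicate 1 (0.0820), 2 (0.0908) or 4 (0.0684) or EpLo replicate 2 (0.11), 3 (0.0900) or 4 (0.115).

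Anterior genes were 30.4% ± 2.12 of Hox counts in 7w EpHi and 18.0% ± 0.867 in 7w EpLo (n = 4 each). Hoxb3os was higher in EpHi at 7w as well, at 12.7, 11.7, 9.98 and 11.0 CPM against 7.23, 5.14, 6.74 and 2.97 (log2 0.97 ± 0.24, edgeR adjusted p = 0.00238), and 5 of 7 TALE cofactors tested were higher. The difference of the gate effect between the times was tested for the 12 genes. None passed the edgeR test, with 1.58% of genes higher and 0.799% lower, and 3 were under an unadjusted p of 0.05. These were Hoxb2 (1.12 ± 0.48, adjusted p = 0.303), Hoxb3 (0.97 ± 0.37, 0.219) and Hoxa3 (0.63 ± 0.25, 0.238). That test was not run with DESeq2.

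**Figure D5:**
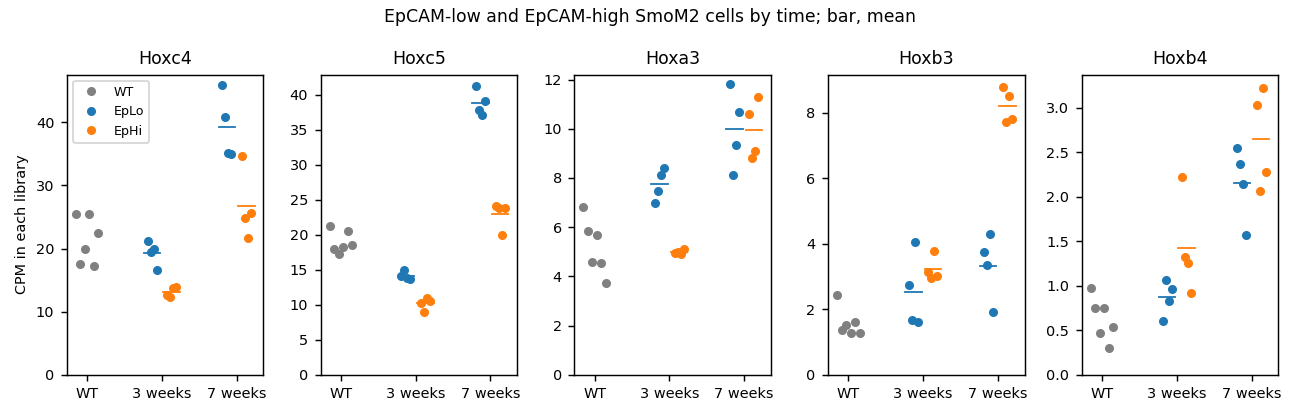
CPM of 5 Hox genes in each WT library (grey) and in EpLo (blue) and EpHi (orange) SmoM2 libraries at 3 and 7 weeks, with group means as bars. Hoxc5 in EpLo lies at 13.7 to 15 CPM at 3w and 37.2 to 41.3 at 7w, and Hoxb3 parts by gate at 7w.

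Among SmoM2 cells sorted by the Krt8 reporter, 1 of 11 Hox genes tested was called higher with YFP and none lower, beside 12.8% and 6.98% of genes, and the median log2 change was 0.29 (-0.03 for all genes). That gene was Hoxc8, at 20.3, 18.7 and 11.0 CPM in K8YFP+ and 10.6, 7.49 and 6.37 in K8YFP- (1.41 ± 0.33, edgeR adjusted p = 0.0210). The groups did not overlap, by a margin of 11.0 against 10.6 CPM. This fit did not pair libraries by replicate number. The call was lost without K8YFP+ replicate 1 (0.0766) or replicate 2 (0.0512, the shallowest library) and without K8YFP- replicate 2 (0.0627) or 3 (0.0853). It was also lost in a fit of all 51 libraries (0.0835). Fibroblast markers summed to 79.2 to 684 CPM in K8YFP+ and 18.8 to 89.3 in K8YFP-, and their part was not tested. Hoxc4 was at 21.0, 20.5 and 23.6 CPM with YFP and 21.1, 30.2 and 21.4 without (0.23 ± 0.20, 0.436). Hoxc5 (0.29 ± 0.37, 0.610) and Hoxb3 (0.06 ± 0.33, 0.921) also did not pass.

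In Sox9cKO none of 12 Hox genes tested differed from SmoM2 by edgeR's test, none was under an unadjusted p of 0.05, and DESeq2 called none. In that comparison 1.16% of 17047 genes were higher and 1.41% lower, so few calls were made anywhere. Log2 changes ran from -0.86 ± 0.54 for Hoxc8 to 0.27 ± 0.28 for Hoxa4, with a median of -0.20 (0.00 for all genes). Hoxb3 was at 8.82, 4.16, 5.53 and 9.49 CPM in Sox9cKO, overlapping SmoM2 (-0.31 ± 0.26, adjusted p = 0.559). Hoxc4 was at 43.1, 20.8, 29.7 and 44.8 CPM (0.23 ± 0.23, 0.618). The number of Hox calls was 0 also without the library labelled Sox9cKO replicate 3, whose Sox9 was not low. Halr1, a noncoding RNA of the Hoxa region, was at 0, 0.507, 0 and 0 CPM in Sox9cKO and 1.39 to 6.01 in SmoM2 (-4.72 ± 0.76, edgeR adjusted p = 0.00833). It was the 1 of 5 noncoding RNAs tested there that was called.

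Of the 26 genes expressed in no group, all but Hoxa11 and Hoxc12 had a count in some library. Posterior genes together were at 1.94 CPM in Embryo (42 counts), 1.38 in K8YFP+ (8 counts, with 3.73 CPM in 1 library), 1.01 in squamous junction (20 counts, mostly Hoxc9) and 0 in Stomach and Gut. Hoxb6 and Hoxb7 were each at 0.356 and 0.826 CPM in Gut, the levels of 1 and 3 counts. Hoxd genes had at most 6 counts in any group, the most in 7w EpLo.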

How the data were processed

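Cells were sorted into lysis buffer and libraries made with a NuGEN Ovation Solo kit, per the labels' protocols. The deposited values are raw read counts per gene, produced by the authors from STAR 2.5.3a alignments to GRCm38 and HTSeq counting, per the submitters' processing notes. No source used here names the annotation release or how strand was handled. Groups were taken from the labels. CPM is the count over the library total, and CPM per kb divides it by the merged exon length in GENCODE M21. Each comparison was fitted over all genes with edgeR 4.0.16 (R 4.3.3, limma 3.58.1): TMM scaling, filterByExpr with a minimum count of 10, robust quasi-likelihood F tests, two-sided, with a call at p under 0.05 after Benjamini-Hochberg adjustment across every gene in the fit. SmoM2 against WT, Sox9cKO against SmoM2, the YFP sort and the junction parts were fitted on their own libraries, the time series with WT on 22 libraries, and the remaining comparisons on all 51. Folds against a group with no count are lower bounds from a floor of 3 counts over the group. A group with 1 to 3 counts has a ratio with a 95% counting interval. Alternatives were RLE scaling, no filter, the fit of all 51 libraries, a replicate block, WT pairs summed, DESeq2 1.42.0 and each library left out. The fits were tested on simulated data that gave all genes the same spread and changed only well-counted genes. That test does not cover Hox genes with few counts. Homeoboxes are the 60 codons found from the conserved core of the homeodomain in GENCODE M21 transcripts.

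Members and gene lists were chosen with earlier results of these data known, and the tests between the time points were added after the data had been seen. Named in full were the called Hox genes of each comparison, at most the 6 with the smallest p plus the most anterior and most posterior called gene of each cluster. No main fit paired samples, and the replicate block was run only as an alternative. Replicate numbers were read as pairing samples only where every same-numbered pair had a correlation of deviations over 0.1. That held for the YFP sort (0.291 to 0.409) and the gates at 3w (0.165 to 0.295). Some genes and sequences are not reported here.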

Additional observations from a re-analysis of the deposited data

Results flagged for a closer look

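In 8 cases a single library stood apart from the rest of their group by Dixon's criterion, among 106 gene and cluster values checked in groups of 4 to 10 libraries. Chance alone gives about 1 in 20. Hoxa4 was at 3.45 CPM in SmoM2 replicate 3, where the next highest of the 6 libraries was at 2.36, and at 0.883 CPM in 3w EpHi replicate 2, where the next lowest was at 1.44. Hoxb3 was at 2.44 CPM in WT replicate 1, with the next at 1.62, and the summed Hoxb genes were at 6.09 CPM in the same library, with the next at 3.74. In 7w EpHi Hoxa5 was at 5.93 CPM in replicate 2 (next 4.11), Hoxc5 at 20 in replicate 3 (next lowest 23.8) and Hoxc8 at 9.70 in replicate 1 (next 3.86). The summed Hoxc genes were at 7.77 CPM in columnar junction replicate 4, with the next library at 3.73.

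Between the EpLo groups at 7w and 3w the tests of the difference singled out 4 Hox genes, all higher at 7w. The log2 differences were 1.40 for Hoxc5, 1.25 for Hoxb4, 0.96 for Hoxc4 and 0.92 for Hoxc6. The raw names of the libraries of the 2 time points begin with different numbers, whose meaning is not given.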

How the results depend on the processing

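No Hox gene called in the main fit or in an alternative changed direction between them. The direction of genes called in neither was not checked. Of 1321 gene results under alternatives, 1227 stayed on their side of the threshold, 82 lost the call and 12 gained it. In the fit of all 51 libraries the number of Hox genes called was 0 for the YFP sort (1 in the main analysis), 0 for the gates at 3w (5), 3 for the gates at 7w (6), 2 for 3w EpLo against WT (4) and 7 for the junction parts (4). Without the filter on low counts it was 7 for the junction parts and 14 for Embryo against WT (8). Leaving out each library in turn gave 0 to 1 calls for the YFP sort, 3 to 5 for the gates at 3w and at 7w, 3 to 5 for 3w EpLo against WT, 1 to 5 for Stomach against columnar junction and 1 to 7 for Gut against Stomach (6). The lowest of the last 2 came without Stomach replicate 1. With the replicate block the Hox calls were 1 in the YFP sort and 5 between the gates at 3w, where the numbers paired the samples, so no count moved by over 1.5 times. Elsewhere at least 1 same-numbered pair had a correlation of deviations under 0.1. The main fits used no pairing in any comparison, the gates and the YFP sort included. The block gave 5 Hox calls for SmoM2 against WT, 0 for Sox9cKO, 6 for the gates at 7w, 3 for 3w EpLo, 9 for 7w EpLo, 4 for the junction parts, 12 for squamous junction against WT, 5 for Stomach, 7 for Gut and 9 for Embryo. At 7w 4 of 4 EpHi libraries correlated best with their own number, though the lowest correlation was 0.0746. Over all genes the block moved the calls from 438 to 130 for Sox9cKO and from 3090 to 4890 for the YFP sort. For the gates at 3w the calls went from 2591 to 6014. The block fits of the gates took only the EpHi and EpLo libraries of that time point, fewer than the main fit. Hoxa7 at 3w and 7w and Hoxb4 at 3w were not tested in them. The change at 3w therefore cannot be credited to the block alone. The fit of all 51 libraries gave 1490 calls for Sox9cKO, 6707 for the YFP sort and 1366 for the gates at 3w. DESeq2 gave 1273 for Sox9cKO, and leaving out 1 library gave 190 to 2114 for Sox9cKO and 1061 to 2302 for the YFP sort. Stomach against columnar junction had 4124 calls without Stomach replicate 1. The cause of these changes was not tested, apart from the smaller number of samples where a library is left out. Depth limits Gut, Stomach and K8YFP+ most, the groups with the smallest totals (6.44, 10.8 and 12.1 M counts).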
